A study of Mus musculus with 6 samples.

Results

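The genes described here are 10 genes that mark cytotoxic lymphocytes (*Cd3e*, *Cd3d*, *Cd8a*, *Cd8b1*, *Nkg7*, *Gzma*, *Gzmb*, *Prf1*, *Ifng* and *Ncr1*), read in RNA libraries of sorted tumor-associated macrophages (TAMs). Each was found once by its symbol in the tables of all 6 libraries, so 10 of the 23424 genes listed were followed. They were chosen by name, with the levels and subset differences of these genes in the same libraries already known. Their differences between the subsets and their movement together are therefore given as descriptions, and nothing is read from how a fit over all genes called them. Bulk RNA-seq was made from F4/80high and F4/80low TAMs of YUMM1.7 melanomas, with 3 libraries of each subset. YUMM1.7 is a single mouse melanoma cell line, and its cells were injected into the dermis of female WT C57Bl/6J mice that were 8 weeks old at tumor induction. The mice received no treatment, and the tumors were taken on day 21. In each of 3 independent experiments, both subsets were sorted from pooled tumors as live CD45+ CD11b+ F4/80+ cells, so a library stands for a pool of mice and not for an animal. The study's methods add a lineage-negative (Lin-) gate before CD11b, and which antibodies made up Lin in the sort is not given in the sources used here. The panel listed for flow cytometry holds antibodies to B220, CD3e, NK1.1 and Ly6G in a shared dye, which mark B cells, T cells, NK cells and neutrophils.

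CD3 is the signaling part of the T cell receptor complex, and CD8 is the co-receptor by which killer T cells read peptides on MHC class I molecules. Cytotoxic T cells and natural killer (NK) cells kill a target by releasing granules, in which perforin opens the membrane and granzymes enter and start cell death. Both cell types also secrete interferon gamma, which acts on macrophages and raises their antigen presentation and their guanylate-binding proteins. NKp46, the product of *Ncr1*, is a receptor by which NK cells are switched on.

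The macrophage label was checked first. All 12 macrophage genes looked at were detected in every library, and their summed level was 8558 to 30499 CPM (read counts scaled to the TMM-normalized library size). *Adgre1*, which encodes F4/80, measured 273, 539 and 360 CPM in F4/80high replicates 1, 2 and 3, and 243, 327 and 183 CPM in F4/80low replicates 1, 2 and 3. Its level was higher in F4/80high in each replicate pair. The study draws replicates 1 and 2 as batch 1 and replicate 3 as batch 2, and the 2 libraries of batch 2 stood apart. They held 16045281 and 16204810 counts, against 30292061 to 43604373 in the 4 libraries of batch 1. In batch 2, *Gm15564*, *Gm23935* and *Lars2* held 17.1% and 16.1% of the counts together, and in batch 1 these 3 features held 0.378% to 0.609%. The independent experiment behind replicate 3 and batch 2 cannot be told apart.

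The cytotoxic lymphocyte genes held 0.226% of all counts in F4/80high replicate 1, 0.0618% in replicate 2 and 0.0147% in replicate 3. In F4/80low replicates 1, 2 and 3 they held 0.0729%, 0.103% and 0.00615%. The smallest share, in F4/80low replicate 3, rested on 996 counts, with an exact 95% Clopper-Pearson interval of 0.00577% to 0.00654% that covers counting error only. The largest share was that of F4/80high replicate 1. In bulk samples such as these, fewer cells of a type and less RNA per cell cannot be told apart.

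**Figure D1:**
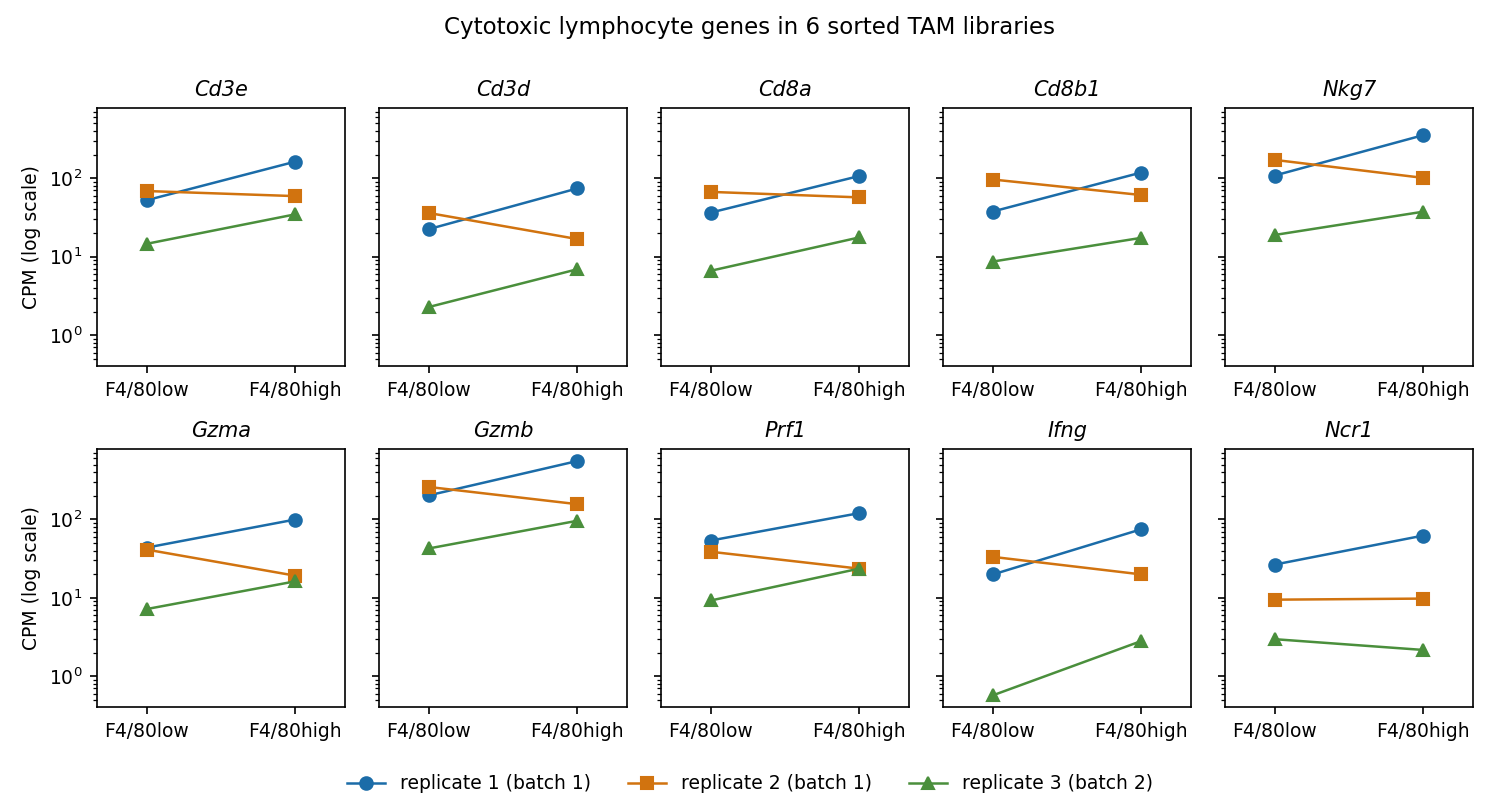
Level of each of the 10 genes in the 6 libraries, in CPM on a log axis, with F4/80low on the left and F4/80high on the right of each panel. A line joins the 2 libraries of a replicate pair: F4/80high replicate 1 is the highest point in all 10 panels, and replicate 3 (batch 2) has the lowest points, apart from *Prf1*, where F4/80high replicates 2 and 3 lie at 23.5 and 23.6 CPM.

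The genes of the T cell receptor complex and co-receptor were read in all 6 libraries, with no less than 20 counts for any of them. *Cd3e* (ENSMUSG00000032093, chr9:44998740-45009627 on the minus strand of GRCm38) encodes the epsilon chain of CD3. It measured 163, 59.2 and 34.7 CPM in F4/80high replicates 1, 2 and 3, and 52.5, 68.8 and 14.6 CPM in F4/80low replicates 1, 2 and 3. F4/80high replicate 1 was the highest and F4/80low replicate 3 the lowest, and the other libraries of the subsets overlapped. *Cd3d* (ENSMUSG00000032094, chr9:44981786-44987339, plus strand), which encodes the delta chain and lies beside *Cd3e*, measured 74.2, 16.8 and 6.92 CPM in F4/80high and 22.4, 36.1 and 2.28 CPM in F4/80low. Here F4/80high replicate 2 lay below both batch 1 libraries of F4/80low.

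*Cd8a* (ENSMUSG00000053977, chr6:71373427-71379173, plus strand) and *Cd8b1* (ENSMUSG00000053044, chr6:71322788-71337494, plus strand) encode the alpha and beta chains of CD8 and are neighbors. *Cd8a* measured 107, 57.1 and 17.6 CPM in F4/80high and 36.5, 67.0 and 6.62 CPM in F4/80low. For *Cd8b1* the levels were 118, 61.1 and 17.4 CPM in F4/80high and 37.7, 96.4 and 8.67 CPM in F4/80low. Both put the 6 libraries in the same order as *Cd3e*, from F4/80high replicate 1 through F4/80low replicate 2, F4/80high replicate 2, F4/80low replicate 1 and F4/80high replicate 3 to F4/80low replicate 3. The beta chain is carried by conventional CD8 T cells, whereas the alpha chain is also made by some dendritic cells. An antisense-strand gene, *Gm48719*, overlaps *Cd3e*, and 6.00% of the 50-base stretches of *Cd8b1* transcripts also occur in transcripts of other genes. How the counting treated strand and shared stretches is not given in the sources used here.

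*Gzmb* and *Nkg7* had the highest counts of the 10 genes. *Nkg7* (ENSMUSG00000004612, chr7:43437073-43438249, plus strand), a membrane protein of cytotoxic granules, measured 355, 101 and 37.5 CPM in F4/80high and 108, 171 and 18.9 CPM in F4/80low. *Gzmb* (ENSMUSG00000015437, chr14:56258838-56262260, minus strand), the granzyme that cleaves caspases, measured 555, 156 and 96.0 CPM in F4/80high and 202, 259 and 42.6 CPM in F4/80low. For both genes F4/80high replicate 1 was the highest, F4/80low replicate 2 came next, and the subsets overlapped. *Gzma* (ENSMUSG00000023132, chr13:113093825-113100981, minus strand), a tryptase of the granules, measured 99.6, 19.1 and 16.2 CPM in F4/80high and 43.7, 41.2 and 7.19 CPM in F4/80low. *Prf1* (ENSMUSG00000037202, chr10:61297833-61304680, plus strand) encodes perforin and measured 120, 23.5 and 23.6 CPM in F4/80high and 53.7, 38.6 and 9.24 CPM in F4/80low. For *Gzma* and *Prf1* the second highest library was F4/80low replicate 1. On this TMM-scaled measure, F4/80high replicate 2 lay close to F4/80high replicate 3 of the other batch.

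The promoters of these 4 granule genes are shown as a description of their sequence. Their movement in the 6 libraries was not particular to them. *Gzmb* had a Pearson r of log2 CPM of 0.994 with *Cd3d* and of 0.960 with *Prf1*. Shared regulation was not tested. Each window runs from 250 bases before to 50 bases after a RefSeq transcription start (GRCm38.p6) and is written 5′ to 3′ on the strand of the gene. The RefSeq start of *Gzmb* lies upstream of the gene in the GENCODE M21 annotation, and those of *Nkg7* and *Prf1* lie inside their genes. Capitals mark 3 core motifs of factors known in cytotoxic lymphocytes, searched on both strands: T-box (AGGTGT, or ACACCT on the other strand), RUNX (TGTGGT or ACCACA) and ETS (GGAAGT or ACTTCC). None of the marked matches overlaps another.
Nkg7 (chr7:43436888-43437187, plus strand): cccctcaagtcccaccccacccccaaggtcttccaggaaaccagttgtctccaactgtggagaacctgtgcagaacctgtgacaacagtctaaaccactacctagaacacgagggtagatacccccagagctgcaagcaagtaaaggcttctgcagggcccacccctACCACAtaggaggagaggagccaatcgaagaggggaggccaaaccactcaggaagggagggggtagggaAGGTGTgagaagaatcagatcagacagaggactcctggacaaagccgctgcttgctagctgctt
Gzma (chr13:113100932-113101231, minus strand): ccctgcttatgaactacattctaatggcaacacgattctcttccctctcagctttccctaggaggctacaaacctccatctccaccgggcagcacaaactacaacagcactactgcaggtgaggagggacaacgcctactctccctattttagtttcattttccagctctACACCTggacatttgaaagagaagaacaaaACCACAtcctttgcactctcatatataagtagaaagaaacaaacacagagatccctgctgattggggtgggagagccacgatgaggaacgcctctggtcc
Gzmb (chr14:56262285-56262584, minus strand): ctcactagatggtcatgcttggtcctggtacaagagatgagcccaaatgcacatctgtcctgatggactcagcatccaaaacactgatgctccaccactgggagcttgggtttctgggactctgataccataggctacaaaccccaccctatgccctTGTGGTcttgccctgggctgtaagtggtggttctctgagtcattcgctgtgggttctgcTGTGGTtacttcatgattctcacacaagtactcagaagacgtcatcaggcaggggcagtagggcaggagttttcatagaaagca
Prf1 (chr10:61297586-61297885, plus strand): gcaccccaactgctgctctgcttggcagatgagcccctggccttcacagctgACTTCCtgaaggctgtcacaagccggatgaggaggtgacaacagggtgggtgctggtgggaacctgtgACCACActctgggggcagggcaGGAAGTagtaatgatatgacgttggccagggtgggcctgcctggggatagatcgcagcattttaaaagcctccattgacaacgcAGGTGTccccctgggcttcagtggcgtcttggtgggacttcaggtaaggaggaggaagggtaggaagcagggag

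*Nkg7* and *Prf1* hold the T-box letters 14 and 24 bases before the RefSeq start, and *Gzma* holds them on the other strand 80 bases before it. By the GENCODE M21 positions, the T-box match of *Nkg7* lies within the gene. *Gzmb* holds the RUNX letters 93 and 34 bases before the start, while *Nkg7*, *Gzma* and *Prf1* hold them on the other strand. Of the 10 genes, 9 were matched to a promoter in the RefSeq table and *Cd8b1* was not, and *Ncr1* had 2 overlapping windows. The T-box letters were in 5 genes (*Cd3d*, *Cd3e*, *Gzma*, *Nkg7* and *Prf1*) and in 13.7% of all 32851 windows. The RUNX letters were in 5 genes (*Gzma*, *Gzmb*, *Ncr1*, *Nkg7* and *Prf1*) and in 16.8% of all windows. The ETS letters were in 3 genes (*Cd3d*, *Cd3e* and *Prf1*) and in 23.8% of all windows. Such matches describe the letters of a window and are not evidence of binding.

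*Ifng* (ENSMUSG00000055170, chr10:118441046-118445892, plus strand), the gene of interferon gamma, measured 74.9, 19.9 and 2.81 CPM in F4/80high and 19.8, 33.3 and 0.570 CPM in F4/80low. F4/80high replicate 1 was the highest, and both libraries of batch 2 were far below the 4 libraries of batch 1. In batch 2 the values rested on 26 counts in F4/80high and 5 counts in F4/80low, where 3 counts amount to 0.324 and 0.342 CPM. *Ifng* shares 19.9% of its 50-base stretches with *Gm49751*, an overlapping gene on the same strand, so its count is uncertain to that extent.

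*Ncr1* (ENSMUSG00000062524, chr7:4337724-4345164, plus strand) encodes NKp46, an activating receptor of NK cells and other innate lymphocytes that conventional T cells lack. It measured 62.2, 9.77 and 2.16 CPM in F4/80high and 26.5, 9.47 and 2.97 CPM in F4/80low. Its order differed from that of the other genes: replicate 1 of both subsets was at the top, replicate 2 of both subsets in the middle, and replicate 3 of both subsets at the bottom. The lowest values rested on 20 counts in F4/80high and 26 in F4/80low.

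Per kilobase of gene length, the mean level over the 6 libraries was highest for *Gzmb*, at 154 CPM per kb, and *Nkg7*, at 150 CPM per kb. *Cd3e*, *Gzma* and *Cd8b1* followed at 45.6, 43.1 and 39.9 CPM per kb. *Prf1*, *Ifng* and *Cd3d* lay at 21.8, 20.9 and 20.0 CPM per kb, *Cd8a* at 15.5 and *Ncr1* at 12.2 CPM per kb. On the same scale, the macrophage genes *Csf1r* (the receptor for CSF1), *Adgre1* and *Cd68* had mean levels of 165, 98.9 and 361 CPM per kb. *Csf1r* and *Cd68* were picked after their values were seen, and these genes do not stand for the whole list. All 12 macrophage genes summed to 8558 to 30499 CPM in a library, before scaling to length. The median of *Gzmb* over the libraries was 126 CPM per kb, below its mean. The levels of *Gzmb* ranged from 30.0 CPM per kb in F4/80low replicate 3 to 391 CPM per kb in F4/80high replicate 1, and neighbors in this order differed by less than such a spread between libraries.

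The subsets were compared within each replicate pair, as F4/80high minus F4/80low on the log2 scale. In pair 1 all 10 genes were higher in F4/80high, by 1.16 (*Prf1*) to 1.91 (*Ifng*). In pair 2 only *Ncr1* was higher in F4/80high, by 0.05, and the other genes stood at -0.22 (*Cd3e*) to -1.10 (*Cd3d* and *Gzma*). In pair 3 all but *Ncr1* were higher in F4/80high, by 0.98 (*Nkg7*) to 2.18 (*Ifng*), and *Ncr1* stood at -0.45. Each gene was thus higher in F4/80high in 2 of 3 pairs, and for 0 of the 10 did the libraries of one subset all lie above those of the other, as they did for 5.2% of the genes tested. Of all 14645 genes tested, 7451, 7175 and 7899 were higher in F4/80high in pairs 1, 2 and 3.

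Summed over the 10 genes, the level was 1729 CPM in F4/80high replicate 1 and 604 CPM in F4/80low replicate 1, a ratio of 2.86. It was 524 against 821 CPM in pair 2, a ratio of 0.638, and 255 against 114 CPM in pair 3, a ratio of 2.24. The mean log2 ratio over the pairs was 0.68 ± 1.16 (SD, n = 3), so the spread between pairs exceeded the mean. Without pair 1 the mean was 0.26, and without pair 2 it was 1.34.

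**Figure D2:**
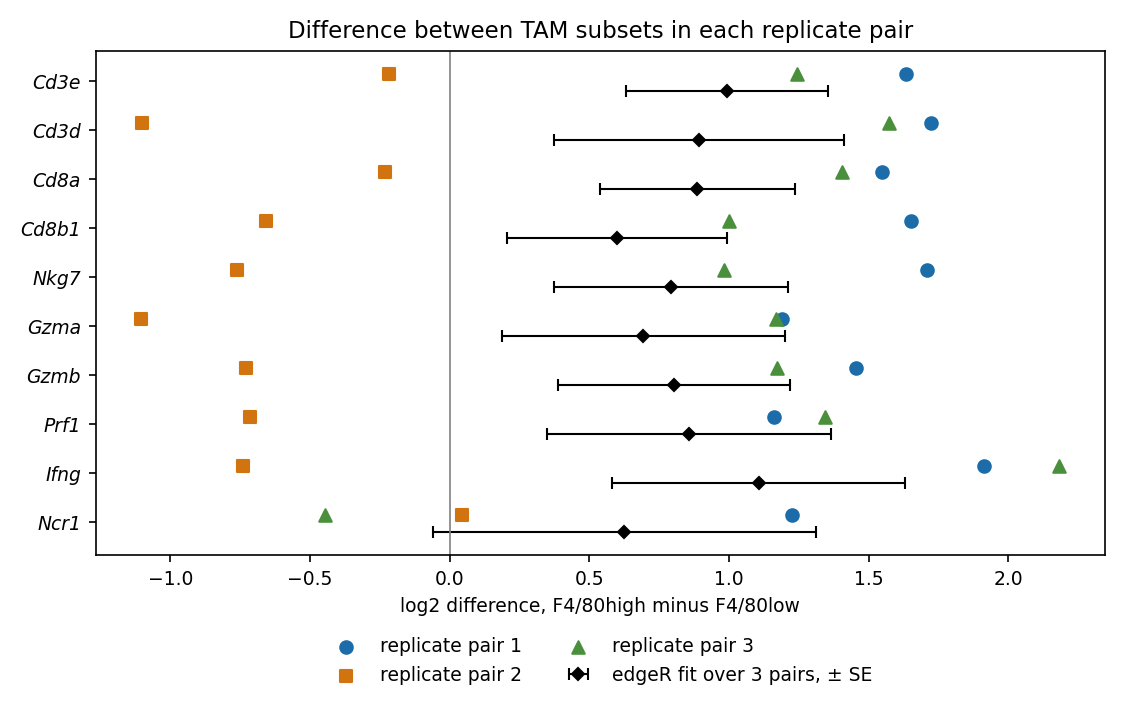
Log2 difference between F4/80high and F4/80low for each gene, with a colored symbol for each replicate pair and a black diamond with its standard error for the fit over the 6 libraries. Pair 1 lies to the right of 0 for all 10 genes and pair 2 to the left for all but *Ncr1*, which is also the gene with pair 3 on the left.

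In the fit with batch as a term, all 10 fitted log2 differences were positive. *Ifng* had the largest, at 1.11 (SE 0.52), followed by *Cd3e* at 0.99 (SE 0.36), *Cd3d* at 0.89 (SE 0.52) and *Cd8a* at 0.89 (SE 0.35). *Prf1*, *Gzmb*, *Nkg7* and *Gzma* lay at 0.86, 0.80, 0.79 and 0.69, with SE of 0.41 to 0.51. *Ncr1* lay at 0.63 (SE 0.69) and *Cd8b1* at 0.60 (SE 0.39). The median of the 10 was 0.83, against 0.01 over all genes tested. It was 0.17 without F4/80high replicate 1, where *Ncr1* turned to -0.73, and 0.66 when the replicate pairs were blocked. At a Benjamini-Hochberg adjusted p under 0.05 with an absolute log2 fold change above 1, edgeR called 0 of the 10 genes and 0 of the 14645 genes (0%). At an unadjusted edgeR p under 0.05 there were 2 of the 10 (*Cd3e* and *Cd8a*) and 1113 of the 14645 genes. DESeq2 called 0 of the 10 and 148 of all genes (1.01%), and edgeR with the pairs blocked called 0 of the 10 and 76 of all genes (0.519%).

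The genes varied together over the 6 libraries. Among the 45 pairs of genes the median Pearson r of log2 CPM was 0.956, from 0.771 (*Cd8b1* with *Ncr1*) to 0.995, and the median Spearman rho was 0.943. Between a gene of the 10 and any other gene tested the median r was 0.243, and over all pairs of the genes tested it was 0.025. These are correlations over 6 libraries that share 3 tumor pools and 2 batches, so they are given without a p. With the difference between the batches removed, the median r was 0.874, and with the differences between the replicate pairs removed it was 0.957. The latter rests on only the 3 pair differences of each gene, so it restates the pattern by pair described above.

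*Ncr1* was the gene least like the others. Its 9 correlations lay at 0.771 to 0.892, and at 0.109 to 0.749 with the batch removed. The 36 correlations among the other genes lay at 0.813 to 0.995, and at 0.556 to 0.992 with the batch removed. Within these, *Cd8a* and *Cd8b1* moved closely with each other (0.99, and 0.95 with the batch removed), as did *Gzma* and *Prf1* (0.99 and 0.98). Between these couples the correlation was weaker, down to 0.56 for *Cd8b1* with *Prf1* after the batch was removed.

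**Figure D3:**
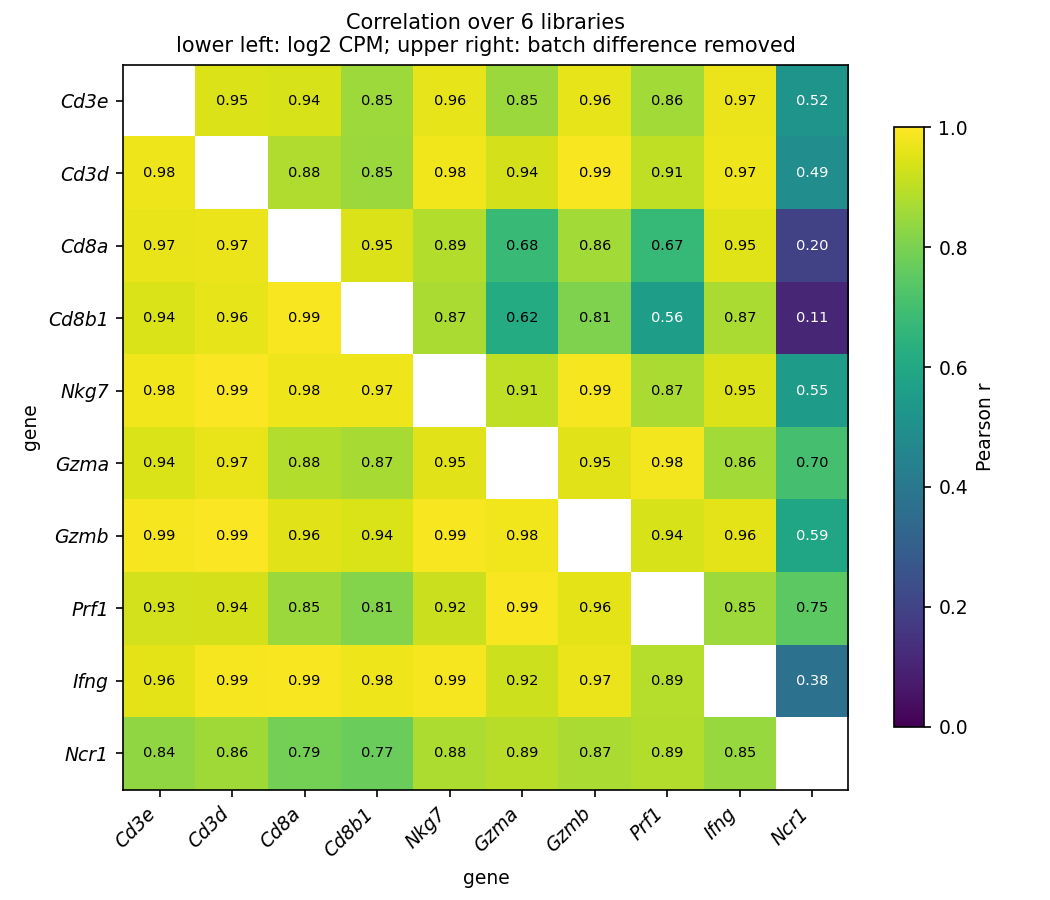
Pearson r between each pair of the 10 genes over the 6 libraries, from log2 CPM below the diagonal and with the batch difference removed above it. The column of *Ncr1* is the darkest, down to 0.11 with *Cd8b1*, and *Cd8a* and *Cd8b1* are darker with *Gzma* and *Prf1* than with the CD3 genes.

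Ratios of counts within a library do not depend on its depth, and for *Prf1* to *Cd8a* and for *Cd8b1* to *Cd3e* both libraries of replicate 2 stood apart. *Prf1* had 1.12 counts for each count of *Cd8a* in F4/80high replicate 1 (exact 95% interval 1.08 to 1.17) and 1.47 in F4/80low replicate 1 (1.38 to 1.57). In replicate 2 the ratio was 0.412 (0.385 to 0.441) in F4/80high and 0.576 (0.541 to 0.614) in F4/80low. In replicate 3 it was 1.34 (1.09 to 1.65) and 1.40 (0.985 to 1.99). Replicate 2 thus had the lowest ratio in both subsets, outside the counting intervals of the other replicates.

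*Cd8b1* per *Cd3e* was 0.727 and 0.718 in F4/80high and F4/80low of replicate 1, 1.03 and 1.40 in replicate 2, and 0.502 and 0.594 in replicate 3. Replicate 2 was again apart, with the highest ratio in both subsets. *Cd3e* per *Ncr1* was 2.62 and 1.98 in replicate 1 and 6.06 and 7.26 in replicate 2, whereas in replicate 3 it was 16.1 in F4/80high (exact 95% interval 10.2 to 26.6) and 4.92 in F4/80low (3.21 to 7.82). *Gzmb* per *Cd3e* stayed within 2.64 to 3.85 in all 6 libraries. The intervals cover counting error only.

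Because both batch 2 libraries were low for most of these genes, the batch coefficient of the same edgeR fit was also read, a choice made after the values had been seen. The count that follows therefore repeats what prompted the reading and supports nothing. All 10 genes were called lower in batch 2 at the thresholds above, where 20.2% of the 14645 genes were called lower and 17.9% higher. Their log2 differences ran from -1.86 (*Cd3e*) to -4.59 (*Ifng*), with a median of -2.60 against -0.35 for all genes. When either library of replicate 3 was left out, a single library stood for batch 2, so only the effect size is given. The median of the 10 was -2.74 when the F4/80high library was dropped and -2.29 when the F4/80low library was. All genes then had medians of -0.44 and -0.34. Leaving out any library of batch 1 gave 8 to 10 of the 10 called lower, beside 17.3% to 20.1% of all genes. With library size alone in place of TMM all 10 were called, beside 41.5% of all genes. The genes were lower in batch 2 together with its smaller depth and its high share of 3 features, and the part of these in the result was not tested.

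Other T cell genes were read to see how far the pattern reached. Of 25 genes, 25 were higher in F4/80high in pair 1, 1 (*Themis*) in pair 2 and 22 in pair 3, and edgeR called 0. Their median fitted log2 difference was 0.69, and 0.19 without F4/80high replicate 1. *Lck*, the kinase that starts T cell receptor signaling, measured 224, 82.8 and 46.9 CPM in F4/80high and 92.1, 103 and 18.4 CPM in F4/80low. *Zap70*, the kinase that acts after *Lck*, had a log2 difference of 1.50 (SE 0.62) and *Cd2*, an adhesion receptor, one of 1.02 (SE 0.47), and neither was called. In F4/80low replicate 3 they rested on 13 and 21 counts, and *Zap70* stood at 1.32, -0.31 and 3.58 in pairs 1, 2 and 3. In batch 2, 13 of the 25 were called lower and 1 (*Bcl11b*) higher.

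The constant genes of the T cell receptor carry a biotype of their own and were outside the fit. *Trac*, the constant region of the alpha chain, measured 240, 69.7 and 56.2 CPM in F4/80high and 84.8, 122 and 32.7 CPM in F4/80low. *Trbc1* and *Trbc2* of the beta chain, *Trdc* of the delta chain and *Tcrg-C1*, *Tcrg-C2* and *Tcrg-C4* of the gamma chain were also counted. All 7 constant genes were higher in F4/80high in pairs 1 and 3, and in pair 2 all but *Tcrg-C4* were lower. *Tcrg-C1* had 0 counts in F4/80low replicate 3. *Trbc1* and *Trbc2* are near-identical copies, so the split of reads between them is uncertain. The summed level of the 7 genes was 472, 140 and 135 CPM in F4/80high and 163, 229 and 62.1 CPM in F4/80low, which put the libraries in the same order as *Cd3d*.

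Of 24 NK and innate lymphocyte genes, 22, 2 and 18 were higher in F4/80high in pairs 1, 2 and 3, and edgeR called 0. The median fitted difference was 0.76. It turned to -0.22 when F4/80high replicate 1 was left out, and rose to 1.23 when replicate 2 of that subset was. *Klrc1*, which encodes the inhibitory receptor NKG2A, had a log2 difference of 0.95 (SE 0.36), *Cd160* one of 1.11 (SE 0.44) and the kinase *Txk* one of 1.07 (SE 0.54). *Cd244*, a receptor that myeloid cells also carry, lay at -0.81 (SE 0.27), *Il18rap* at -0.29 (SE 0.38) and *Klrk1*, which encodes NKG2D, at -0.04 (SE 0.52). *Klrb1c*, which encodes NK1.1, measured 70.2, 8.63 and 25.4 CPM in F4/80high and 34.7, 14.8 and 15.2 CPM in F4/80low. In these TMM-scaled values it was not at its lowest in batch 2, unlike *Ncr1*. That order depends on the scaling: *Klrb1c* had 133 of 16204810 counts in F4/80low replicate 3 and 444 of 43604373 in F4/80high replicate 2. In batch 2, 9 of the 24 were called lower and 3 higher.

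Among the other granzymes, 7 were tested, and 7, 0 and 6 of them were higher in F4/80high in pairs 1, 2 and 3. Their median fitted difference was 0.61. Leaving out F4/80high replicate 1 turned it to -0.83, and leaving out replicate 2 of that subset gave 1.22. *Gzmc* measured 240, 26.2 and 17.3 CPM in F4/80high and 77.1, 60.6 and 10.3 CPM in F4/80low, the highest level of the 7. *Gzmk*, of memory CD8 T cells, had a log2 difference of 1.05 (SE 0.43) and *Gzmd* one of 1.30 (SE 0.82), while *Gzmm* lay at -0.62 (SE 0.59). *Gzme*, *Gzmf* and *Gzmg* stayed under 17 CPM in every library. In replicate 3, *Gzme* rested on 6 counts in F4/80high and 5 in F4/80low, and *Gzmg* on 4 and 2. In F4/80high replicate 2, *Gzme* had 12 counts and *Gzmg* had 0. The directions of these genes in pairs 2 and 3, and their part in the list median, are therefore uncertain. The genes from *Gzmc* to *Gzmg* share 4.14% to 21.9% of their 50-base stretches with each other or with *Gzmn*, so their counts are uncertain.

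Genes of granule release and of death ligands were mixed in direction. Of 17, 11, 4 and 8 were higher in F4/80high in pairs 1, 2 and 3, and the median fitted difference was 0.00, from -0.28 to 0.35 when a library was left out. DESeq2 called *Lyst* of this list lower in F4/80high. *Ctsc*, the protease that activates granzymes and is also made by macrophages, was at 0.80 (SE 0.30), *Lta* at 1.35 (SE 0.62) and *Ctsw*, a cathepsin of cytotoxic lymphocytes, at 0.89 (SE 0.46). In replicate 3, *Lta* rested on 7 counts in F4/80high and 2 in F4/80low. *Lyst*, *Rab27a* and *Srgn*, which serve granules in many blood cells, lay at -1.26 (SE 0.30), -0.95 (SE 0.31) and -0.65 (SE 0.22). None was called by edgeR.

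The receptor of interferon gamma and its targets were followed in 29 genes. In pairs 1, 2 and 3, 19, 6 and 9 were higher in F4/80high, and edgeR called 0. The median was -0.15, from -0.49 (without F4/80high replicate 1) to -0.01 (without F4/80high replicate 2). *Iigp1* and *Gbp6*, interferon-induced GTPases, lay at 0.45 (SE 0.25) and 0.61 (SE 0.42), and the chemokine gene *Cxcl9* at 0.57 (SE 0.37). *Jak2*, a kinase of the receptor, lay at -1.07 (SE 0.32), *Gbp2* at -0.61 (SE 0.29) and *Ciita*, the activator of MHC class II genes, at -0.59 (SE 0.30). *Ifngr1*, a chain of the receptor, measured 676, 426 and 233 CPM in F4/80high and 660, 525 and 255 CPM in F4/80low, so it was present in all libraries. Where *Ifng* was lowest, in batch 2, 8 of the 29 were called higher (*Cxcl9* and *Iigp1* among them) and 5 lower, beside 17.9% and 20.2% of all genes.

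Of 11 genes that induce interferon gamma, the fitted difference was above 0 for 1 (*Il18r1*, 0.68, SE 0.56) and the median was -0.43, from -0.76 to -0.16 when a library was left out. *Ebi3* and *Il27*, the subunits of interleukin 27, lay at -0.90 (SE 0.42) and -0.99 (SE 0.49), and *Il18* at -0.50 (SE 0.30). Of 15 ligands by which macrophages stimulate or restrain T and NK cells, 6, 6 and 4 were higher in F4/80high in pairs 1, 2 and 3, with a median of -0.16, from -0.39 to 0.04 when a library was left out. *Cd86* and *Cd80*, which both bind CD28, lay at 0.43 (SE 0.24) and -0.82 (SE 0.33). *Raet1d*, *Tnfsf9*, *Raet1e* and *Pdcd1lg2* lay at 1.03, 0.26, -1.86 and -0.49. None of these genes was called by edgeR.

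Markers of other cells that the gate could hold were read beside these genes. The summed level of 10 B and plasma cell genes was 162, 67.7 and 19.5 CPM in F4/80high and 93.3, 148 and 22.8 CPM in F4/80low, and 10, 0 and 6 of them were higher in F4/80high in pairs 1, 2 and 3. *Cd79a* and *Cd79b*, which encode the signaling chains of the B cell receptor, and *Ms4a1* were detected in every library, and 6 of the 10 genes were called lower in batch 2. *Jchain* and *Mzb1* were at 0 in at least 1 library. The median fitted difference of the B and plasma cell genes was -0.02, from -0.74 without F4/80high replicate 1 to 0.67 without F4/80high replicate 2. In pairs 1 and 2 their sum differed between the subsets in the direction of the cytotoxic lymphocyte genes, and in pair 3 in the other direction. The part of lymphocytes in the sorted cells was not tested.

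Of the 12 macrophage genes, 6, 11 and 7 were higher in F4/80high in pairs 1, 2 and 3, with a median of 0.38. *Mertk*, *C1qa* and *C1qb*, which serve the uptake of dying cells, lay at 1.63 (SE 0.39), 1.93 (SE 0.59) and 1.71 (SE 0.55) and were not called, and *Ptprc*, *Cd14* and *Itgam* at -0.30, -0.19 and -0.20. With the replicate pairs blocked, edgeR called *Mertk*, *C1qa* and *C1qb* higher in F4/80high (adjusted p = 0.0381, 0.0272 and 0.0283), and DESeq2 with batch called *Mertk* alone. The list's median was 0.61 without F4/80high replicate 1 and 0.06 when replicate 2 was left out instead. F4/80high replicate 2, the F4/80high library of batch 1 with the lower cytotoxic lymphocyte genes, had the highest summed macrophage level, 30499 CPM, against 12015 CPM in F4/80high replicate 1.

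Neutrophil, eosinophil, and mast cell and basophil genes lay on the other side, with medians of -1.16, -1.66 and -1.05 over 12, 10 and 12 genes. Without F4/80low replicate 1 the neutrophil median was -0.70, and the mast cell and basophil median ran from -3.64 without F4/80high replicate 1 to -0.08 without F4/80low replicate 1. The lowest unadjusted p values among them belonged to the neutrophil genes *Camp*, *Ngp* and *Ltf*, at -1.57 (SE 0.26), -1.34 (SE 0.26) and -1.08 (SE 0.27), and to the eosinophil genes *Prg2*, *Alox15* and *Siglecf*, at -1.88 (SE 0.37), -1.47 (SE 0.30) and -1.52 (SE 0.31). The edgeR fit with batch called 0 of these genes, while with the pairs blocked it called 6 neutrophil genes lower in F4/80high (*Camp*, *Ngp*, *Cxcr2*, *Mmp8*, *S100a8* and *S100a9*), and DESeq2 called 5 neutrophil and 6 eosinophil genes lower. These calls stand beside 0.519% and 1.01% of all genes called in those fits, in either direction. Conventional dendritic cell genes had a median of -0.71 and plasmacytoid dendritic cell genes one of 0.03, over 10 genes each. Without F4/80high replicate 1 these were -1.69 and -0.76, and without F4/80low replicate 1 the former was -0.31. The latter was 0.40 when F4/80high replicate 2 was left out. Of the dendritic cell genes, *Cd209a* was called lower with the pairs blocked. Melanoma cell genes summed to 14.5 to 168 CPM, most of it *Mitf*, which macrophages also express.

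**Figure D4:**
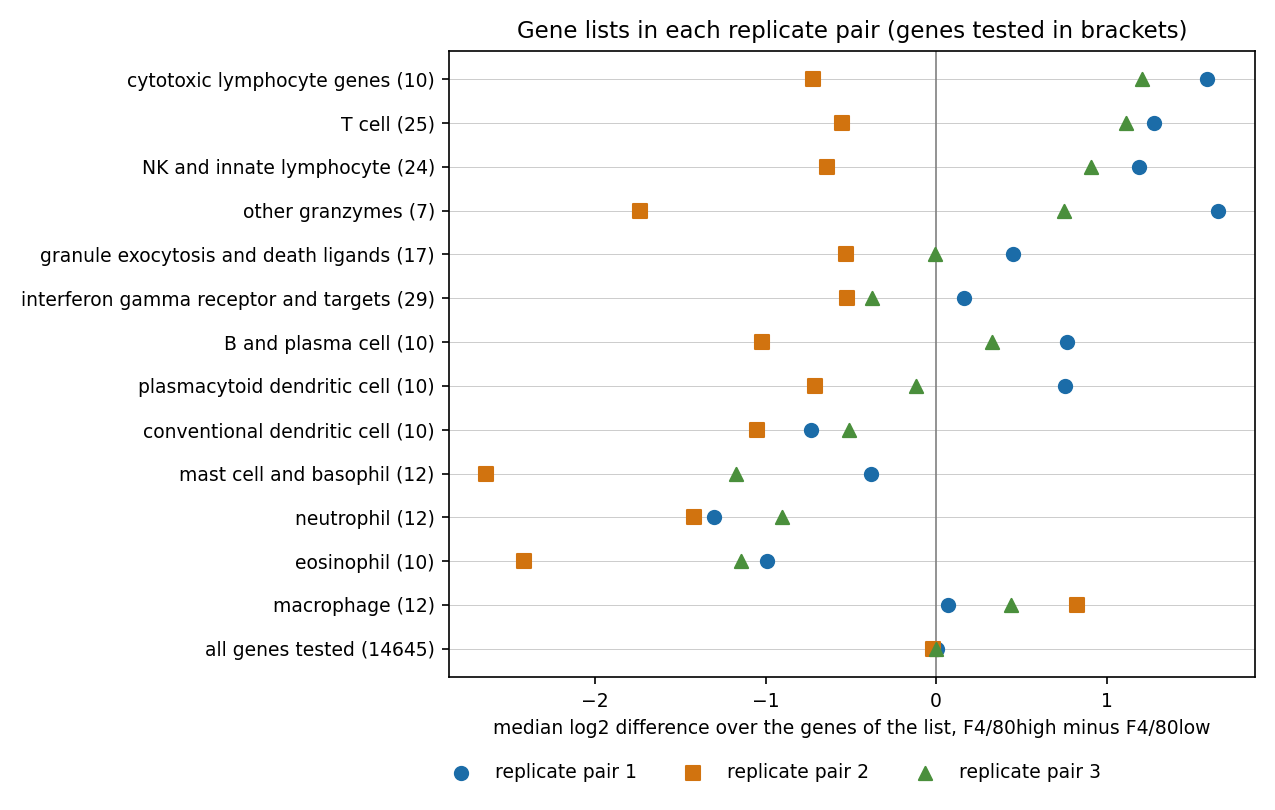
Median log2 difference between F4/80high and F4/80low over the genes of each list, with a symbol for each replicate pair and the number of genes tested in brackets. The cytotoxic lymphocyte, T cell, NK and other granzyme lists lie at 0.75 to 1.65 in pairs 1 and 3 and at -0.55 to -1.73 in pair 2, while neutrophil and eosinophil genes lie below 0 in all 3 pairs.

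The mean of the standardized log2 CPM of the 10 genes was taken as their level in a library, and lists were compared with it over the 6 libraries. The T cell list had r = 0.94 (0.99 with the batch removed), the constant genes of the T cell receptor 0.91 (0.98), the NK list 0.79 (0.88), the B cell list 0.95 (0.79), the granule release list 0.84 (0.60) and the plasmacytoid dendritic cell list 0.73 (0.67). The other granzymes had r = 0.66 (0.87), below the B cell, granule release and plasmacytoid dendritic cell lists before the batch was removed. The macrophage list had r = 0.23 (-0.41), the neutrophil list 0.59 (-0.14) and the interferon gamma receptor and target list 0.02 (0.50). The inducers of interferon gamma had r = 0.52 (-0.01), and a list of 10 cell cycle genes 0.57 (-0.33). These values share the libraries and the batches and carry no test.

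Of 11682 other genes, taken where log2 CPM averaged 0 or more, the 10 most like this level over the 6 libraries were *Sh2d2a*, *Ppp3cc*, *Lat*, *Grap*, *Gimap1*, *Zfp707*, *Izumo1r*, *Sigirr*, *Serpina3g* and *Zfp688*, with Pearson r of 0.994 to 1.00. With the batch removed they were *Ctxn1*, *Nsg2*, *Grap*, *Kbtbd11*, *Sh2d2a*, *Ppp3cc*, *Rora*, *Snn*, *Bcl11b* and *Pdcd1*, with r of 0.994 to 1.00. *Sh2d2a*, *Ppp3cc* and *Grap* were in both. Both sets were picked as the highest of 11682 correlations over 6 libraries, where some high values arise without any link. They carry no test. *Sh2d2a* measured 228, 68.5 and 29.6 CPM in F4/80high and 85.3, 101 and 14.1 CPM in F4/80low, in the same order as *Cd3d*.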

How the data were processed

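The authors deposited, for each of the 6 libraries, raw read counts per gene with gene length and biotype, with no normalization. Poly-A libraries were sequenced and aligned by the standard pipeline of the sequencing center. No source used here names the aligner, the annotation or how reads were counted and assigned to a strand. Of the gene IDs, 99.4% matched GENCODE M21 (GRCm38), which gave the positions and biotypes. Counts of 14645 protein-coding genes with at least 10 counts over the libraries were fitted in R 4.3.3 with edgeR 4.0.16 (quasi-likelihood test, TMM, terms for batch and subset). DESeq2 1.42.0, other normalizations and filters, the replicate block and leaving out each library were alternatives. The steps were tested on simulated data.

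CPM were scaled to the TMM-normalized library size, and log2 CPM used a prior count of 2. The TMM factors were 1.21 to 1.34 in batch 1 and 0.646 and 0.601 in batch 2. Orders of libraries across the batches therefore depend on this scaling. Correlations, count ratios and pair ratios are descriptions. Same-numbered libraries of both subsets were taken as pairs from the same of 3 independent experiments. That the replicate numbers match across the subsets was assumed. In replicates 1, 2 and 3, their departures from the mean of their subset had correlations of 0.745, 0.729 and 0.907 over 10072 genes. These include the batch difference, and within batch 1 the correlation was 0.242. Depth was 16045281 to 43604373 counts a library, and a gene with few counts has a wide counting error. Among libraries of the same subset, none was a copy of another, and libraries of different subsets were not compared in this way.

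The genes and lists were chosen with earlier results of these data known. From each list, up to 3 genes with the smallest p in each direction are named, all genes of lists of fewer than 9, and the 10 genes whose levels were most like theirs. *Adgre1*, *Itgam*, *Ptprc* and *Klrb1c* are named as genes of the gate or lineage. Others (*Themis*, *Bcl11b*, *Ifngr1*, *Csf1r*, *Cd68* and B cell genes) were picked after their values were seen, and list medians without each library were added then. Promoter sequences came from RefSeq (GRCm38.p6).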

Additional observations from a re-analysis of the deposited data

How the results depend on the processing

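The 10 genes had 0 calls between the subsets under every alternative run, and their median log2 difference stayed positive, from 0.17 (without F4/80high replicate 1) to 1.19 (without F4/80high replicate 2) when a library was left out. The mean pair log2 ratio of their summed CPM ran from 0.26 to 1.34 when a pair was left out. Over all genes tested, 0 calls became 148 with DESeq2, 76 with the replicate block and 354 with DESeq2 and the replicate block, and 0 to 57 when a library was left out. Over the other lists, 0 calls became 13, 10 and 26 in the same order, and 0 to 2 when a library was left out. The cause was not tested. The median correlation was 0.874 with the batch removed and 0.901 to 0.977 when a library was left out. In the paired analysis with the replicate block the median difference was 0.66. *Ncr1* was -0.73 without F4/80high replicate 1. Depth limits *Ifng* and *Ncr1* in batch 2, with 5 to 26 counts a library, and *Cd3d* in F4/80low replicate 3, with 20 counts.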
